A study of Homo sapiens with 30 samples.

Results

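The proteasome genes of these libraries were taken as all rows of the deposited count table whose symbol is PSMA, PSMB, PSMC, PSMD, PSME, PSMF or PSMG followed by a number. The rule found 48 genes among the 60664 rows of the table. They comprise 19 genes of the core particle (PSMA and PSMB), 20 of the regulatory particle (PSMC and PSMD), 4 activators (PSME), 1 inhibitor (PSMF1) and 4 assembly chaperones (PSMG).

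The proteasome is the protease that degrades most ubiquitin-tagged proteins in the cytosol and nucleus. Its core particle is a barrel of stacked rings, with PSMA subunits forming the outer gated rings and PSMB subunits the inner rings, in which PSMB5, PSMB6 and PSMB7 carry the active sites. The regulatory particle caps the barrel: PSMC subunits form a ring of ATPases that unfolds substrates, and PSMD subunits bind and remove ubiquitin and hold the lid together. Cells short of proteasome activity raise many of these genes together through the transcription factor NRF1, the product of NFE2L1, and arsenite is a toxicant that damages proteins and burdens this system.

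RNA was sequenced from 2 stable lines made from Flp-In T-REx HEK293, a human embryonic kidney line with an insertion site for tetracycline-controlled transgenes. FT293-GFP-TIA1aWT carries GFP fused to wild-type TIA1a, and FT293-GFP-TIA1aWDM carries the same fusion with the Welander distal myopathy mutation; TIA1 binds RNA and gathers, with mRNA and other proteins, in the stress granules of stressed cells. Each genotype is represented by 1 stable line, so a line difference and a mutation difference cannot be told apart. The cytosol libraries cover 6 groups: each line untreated, each with tetracycline, and each with tetracycline and 0.5 mM sodium arsenite for 60 min. The granule libraries cover 4 groups, tetracycline with or without arsenite in each line, and come from material collected by centrifugation and captured on GFP-binding beads. No granule group lacks tetracycline, and all granule material was captured through the tagged TIA1a. There were 3 libraries in each of the 10 groups; the labels number them 1 to 3 without saying whether they are separate cultures, so the p-values below measure only the spread between these samples.

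The 30 libraries held 5906167 to 27419145 counts assigned to genes. Of the genes used to check the HEK293 label, KRT8, KRT18, VIM and CDH2 had group means of at least 21.8 CPM (counts divided by the library total and scaled to a common sum), while PAX2 lay between 1.59 and 14.5 CPM. AQP2 of the collecting duct had 0 counts in every library, and the other markers of leukocytes, endothelium, fibroblasts, muscle and mature kidney stayed at group means of at most 5.27 CPM. The nuclear RNA NEAT1 was higher in the granule fraction than in the cytosol fraction in all 4 comparisons, with log2 differences of 4.65, 3.58, 3.67 and 3.23. Genes of the mitochondrial genome passed as higher there for 3, 3, 0 and 1 of 3 tested, where 39.5%, 35.8%, 35.0% and 36.3% of all genes did. The part of NEAT1 and of the mitochondrial genes in the results below was not tested. Among the libraries with tetracycline alone, 2 stand apart from a group whose other libraries lie close together. In replicate 1 of WT cytosol the proteasome genes made up 0.697% of all counts against 0.810% and 0.794% in the other two, and in replicate 1 of WDM granule 0.232% against 0.287% and 0.279%. A chi-square of the counts over genes, per degree of freedom, was 23.9 and 24.2 for the first against its group and 2.81 between the other two, and 40.7 and 33.3 for the second and 3.38 between its other two. Replicate 2 of WDM cytosol with tetracycline also differed, at 0.723% against 0.635% and 0.636%. Its chi-square was 15.8 and 14.4 against its group, and 6.99 between the other libraries. The counts without each of the first 2 are given beside the results that move with it.

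Members differed widely in level. Levels between genes are compared per kilobase of canonical transcript (CPM per kb), here in untreated WT cytosol with n = 3. PSMB1, a non-catalytic core subunit, was highest at 383.5 ± 6.23 CPM per kb (SD), and PSMD8, a lid subunit, followed at 379.6 ± 17.0, so these neighbours in the order lay within their spread. PSMB4 had 342.7 ± 19.3, PSMA7 307.8 ± 13.9 and PSMB3 284.8 ± 8.75 CPM per kb. The catalytic subunits PSMB6, PSMB5 and PSMB7 had 203.9, 190.6 and 170.9 CPM per kb. Toward the lower end were PSME4, which encodes the activator PA200, at 17.3 CPM per kb and PSMF1, which encodes the inhibitor PI31, at 9.79. PSMA1 was lower still at 7.40, and the other 9 members, described next, were under 1 CPM per kb. Of the genes named at the top of the order, PSMD8 was the only regulatory one. The next regulatory gene, PSMD4, lay beside PSMB6 at 203.6 CPM per kb.

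Several members had almost no counts, and for some the annotation shows a same-strand neighbour over the gene. PSMA2 had 0 counts over all 30 libraries, PSMA6 had 6 and PSMD9 had 5; 100%, 99.7% and 99.1% of their exon length lies inside another gene on the same strand. Reads over such exons can be left out of a table that counts only uniquely assigned reads, so missing counts and missing expression cannot be told apart here. PSMA1, an outer-ring core subunit (ENSG00000129084, chromosome 11, 14504874 to 14643635, minus strand), has 81.0% of its exon length inside such a gene; it had 12939 counts over all libraries, where in the gene they fall was not tested, and its level is uncertain in every result below. The immunoproteasome subunits, which replace catalytic core subunits in immune and interferon-treated cells, were near the floor: PSMB8 had 68 counts, PSMB10 65 and PSMB9 199 over all libraries. PSMB10 and PSMB9 also overlap a same-strand neighbour in the annotation, which had 146 and 0 counts. For these genes too, missing counts and missing expression cannot be told apart. PSMA8, the testis-type subunit, had 95 counts, PSMB11, the thymus-type subunit, 5, and PSMD5, an assembly chaperone of the regulatory particle, 286. After the filter on low counts, 40 members were tested in the cytosol fit, 40 in the granule fit and 41 in the fit of both fractions.

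As a share of all counts, the 48 genes made up 0.724% ± 0.0230 (SD, n = 3) in untreated WT cytosol and 0.628% ± 0.00371 in untreated WDM cytosol. With tetracycline the cytosol shares were 0.767% ± 0.0613 in WT and 0.665% ± 0.0508 in WDM, and with arsenite 0.710% ± 0.0124 and 0.624% ± 0.0622. In the granule fraction they were 0.272% ± 0.0146 in WT and 0.266% ± 0.0297 in WDM with tetracycline, and 0.257% ± 0.00715 and 0.227% ± 0.0182 with arsenite. The granule shares were all below the cytosol shares of the same line and treatment. In the plot of 6 members by library, PSMB6 shows this separation in every group. PSMA1 and PSME4 are higher in granule, PSMF1 is similar in both fractions, and PSMD2 and PSMG4 overlap between fractions in some groups.

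**Figure D1:**
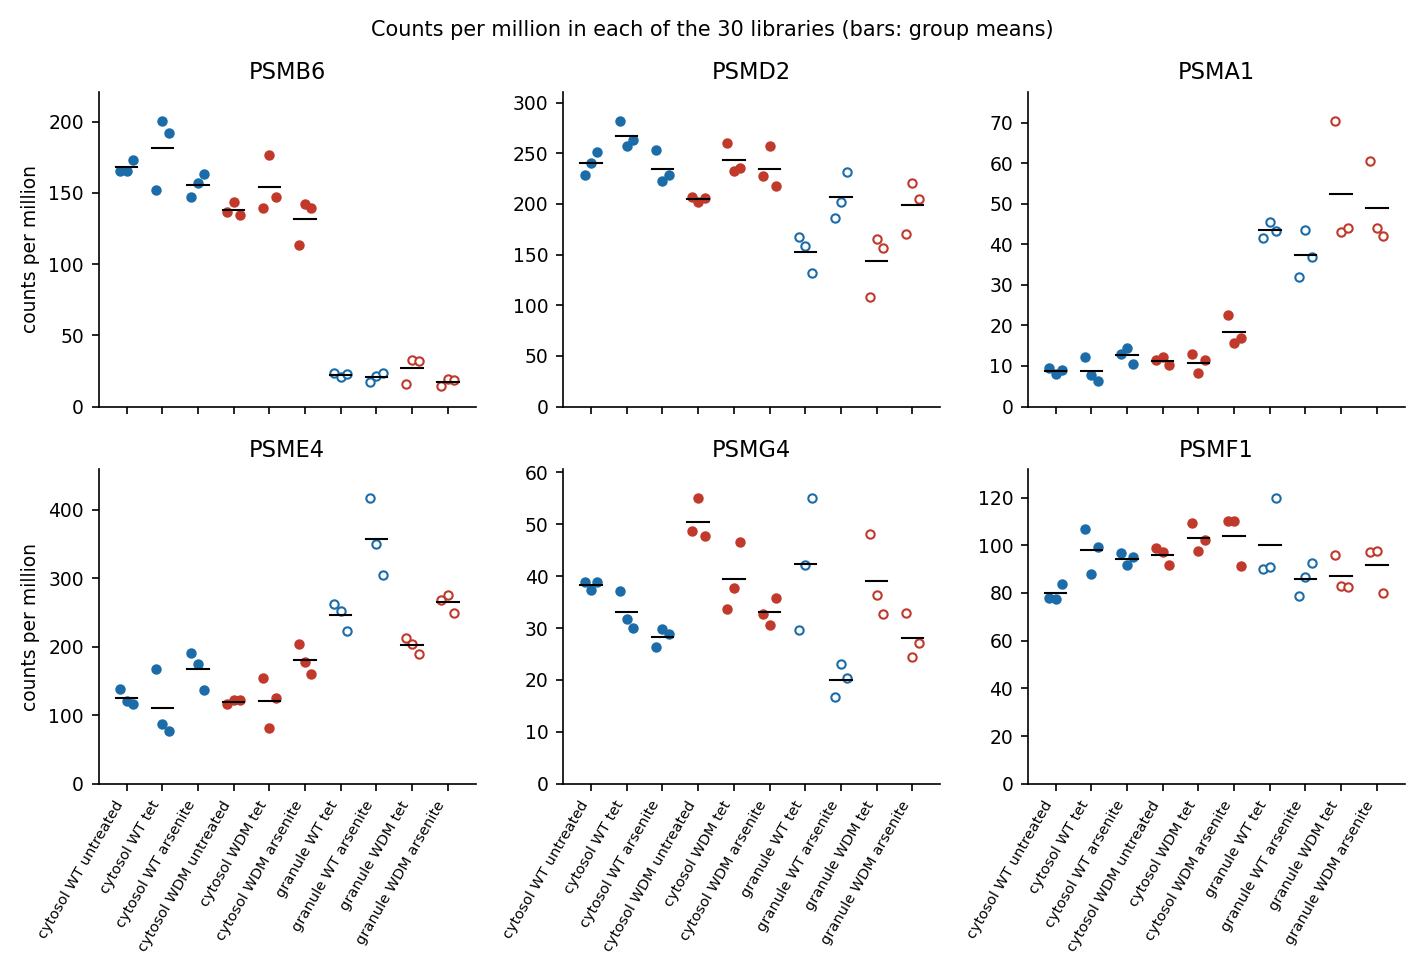
Level in CPM (y axis, from 0) of PSMB6, PSMD2, PSMA1, PSME4, PSMG4 and PSMF1 in the 30 libraries by group (x axis); filled points are cytosol, open points granule, blue WT and red WDM, and bars are group means. PSMB6 lies between 14.7 and 32.6 CPM in granule and at 114 or more in cytosol, PSMA1 and PSME4 are higher in granule, and PSMF1 is at similar heights in both.

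The first comparison asks which proteasome mRNAs were over- or under-represented in the granule fraction relative to cytosol of the same line and treatment. Nearly all were under-represented. With tetracycline alone in WT, 36 of 41 tested members were lower in granule and 2 were higher; over all genes tested 36.2% were lower and 39.5% higher. In WDM with tetracycline the counts were again 36 lower and 2 higher (background 35.3% and 35.8%). With arsenite, 35 were lower and 3 higher in WT (35.5% and 35.0%), and 35 lower and 2 higher in WDM (35.7% and 36.3%). The median log2 difference of the members was -1.87, -1.51, -1.78 and -1.71 in the order just given, against medians of 0.07, 0.02, 0.05 and 0.06 over all genes tested. The same 34 members were lower in all 4 comparisons, and PSMA1 and PSME4 were higher in all 4. The other member higher with arsenite in WT was the regulatory gene PSMD5, at very low counts. Its log2 differences were 0.32, 0.86, 1.27 and 0.78. The values describe shares of each library, so less of an mRNA in granules and more of other RNA there cannot be told apart.

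Among core subunits, PSMB6 (ENSG00000142507, chromosome 17, 4796144 to 4798502, plus strand), which carries the caspase-like active site, fell most with tetracycline alone in both lines. In the WT line with tetracycline it had 152, 201 and 192 CPM in the 3 cytosol libraries and 23.9, 20.9 and 22.5 in the 3 granule libraries. The ranges do not overlap, and every granule library is under 24 CPM. The log2 difference was -3.07 ± 0.21 (SE; edgeR quasi-likelihood test, adjusted p = 4.59e-13), and in the other three comparisons it was -2.50, -2.91 and -2.98. PSMB3, a structural subunit of the inner ring (ENSG00000277791, chromosome 17, 38752741 to 38764225, plus strand), had a log2 difference of -3.12 ± 0.19 with arsenite in WT (adjusted p = 2.51e-14) and -3.07 ± 0.19 in WDM. Its cytosol libraries with arsenite held 172, 182 and 194 CPM in WT and its granule libraries 18.2, 22.3 and 22.6. PSMB5, the chymotrypsin-like subunit, had log2 differences of -2.35, -1.88, -1.98 and -1.99. PSMB7, the trypsin-like subunit, fell least of the catalytic subunits, with -1.05, -0.998, -1.33 and -1.36. In all, 12 of 13 tested core genes were lower in 3 of the comparisons and 11 of 13 with arsenite in WT, where PSMB9, at under 2 CPM, had a log2 difference of -1.30 with adjusted p = 0.0908. PSMA1 was the core gene on the other side: in WT with tetracycline it had 12.2, 7.66 and 6.24 CPM in cytosol and 41.6, 45.6 and 43.4 in granule. Its log2 differences were 2.28, 2.26, 1.57 and 1.34.

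Regulatory subunits were lower in granule too, by a smaller median. All 6 PSMC ATPases fell in all 4 comparisons, with medians of -1.68, -1.46, -1.67 and -1.65. Of 19 tested regulatory genes, 18, 18, 17 and 17 were lower, with medians of -1.70, -1.45, -1.58 and -1.66 against core medians of -2.35, -1.99, -2.34 and -2.46. PSMD8 had the largest fall of the regulatory genes with arsenite in WT, by 2.95 ± 0.18 on the log2 scale (adjusted p = 1.79e-14). PSMD2, a large scaffold subunit of the base (ENSG00000175166, chromosome 3, 184299198 to 184309050, plus strand), passed the test without arsenite and not with it, and the change itself passed in WT (interaction 0.67 ± 0.23). It fell by 0.85 in WT and 0.75 in WDM with tetracycline alone. With arsenite its log2 difference was -0.18 in WT (adjusted p = 0.31) and -0.30 in WDM (adjusted p = 0.0903). In WT granules it went from 168, 158 and 132 CPM with tetracycline to 187, 201 and 232 CPM with arsenite.

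Activators split. PSME1, a subunit of the activator PA28, was lower by log2 differences of -2.96, -2.46, -2.94 and -2.87. PSME4 (ENSG00000068878, chromosome 2, 53864069 to 53970993, minus strand) rose by 1.12 ± 0.22 in WT with tetracycline (adjusted p = 3.82e-05), by 0.74 in WDM with tetracycline, by 1.102 in WT with arsenite and by 0.49 in WDM with arsenite (adjusted p = 0.0403). Its WT libraries with tetracycline held 168, 87.0 and 77.3 CPM in cytosol and 263, 252 and 224 in granule, so replicate 1 of the cytosol group was nearest the granule range. The WDM arsenite call was lost in 5 of 6 fits with 1 library left out. PSMF1 (ENSG00000125818, chromosome 20, 1113240 to 1189415, plus strand) passed the test in none of the 4 comparisons; its values were 107, 88.1 and 99.1 CPM in WT cytosol with tetracycline and 90.1, 90.8 and 119.9 in granule, with adjusted p from 0.0749 to 0.993. PSMG4, an assembly chaperone for the core ring (ENSG00000180822, chromosome 6, 3231403 to 3303373, plus strand), fell with arsenite in WT, by 0.50 ± 0.17, and the other three comparisons gave adjusted p of 0.0625, 0.863 and 0.1.

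**Figure D2:**
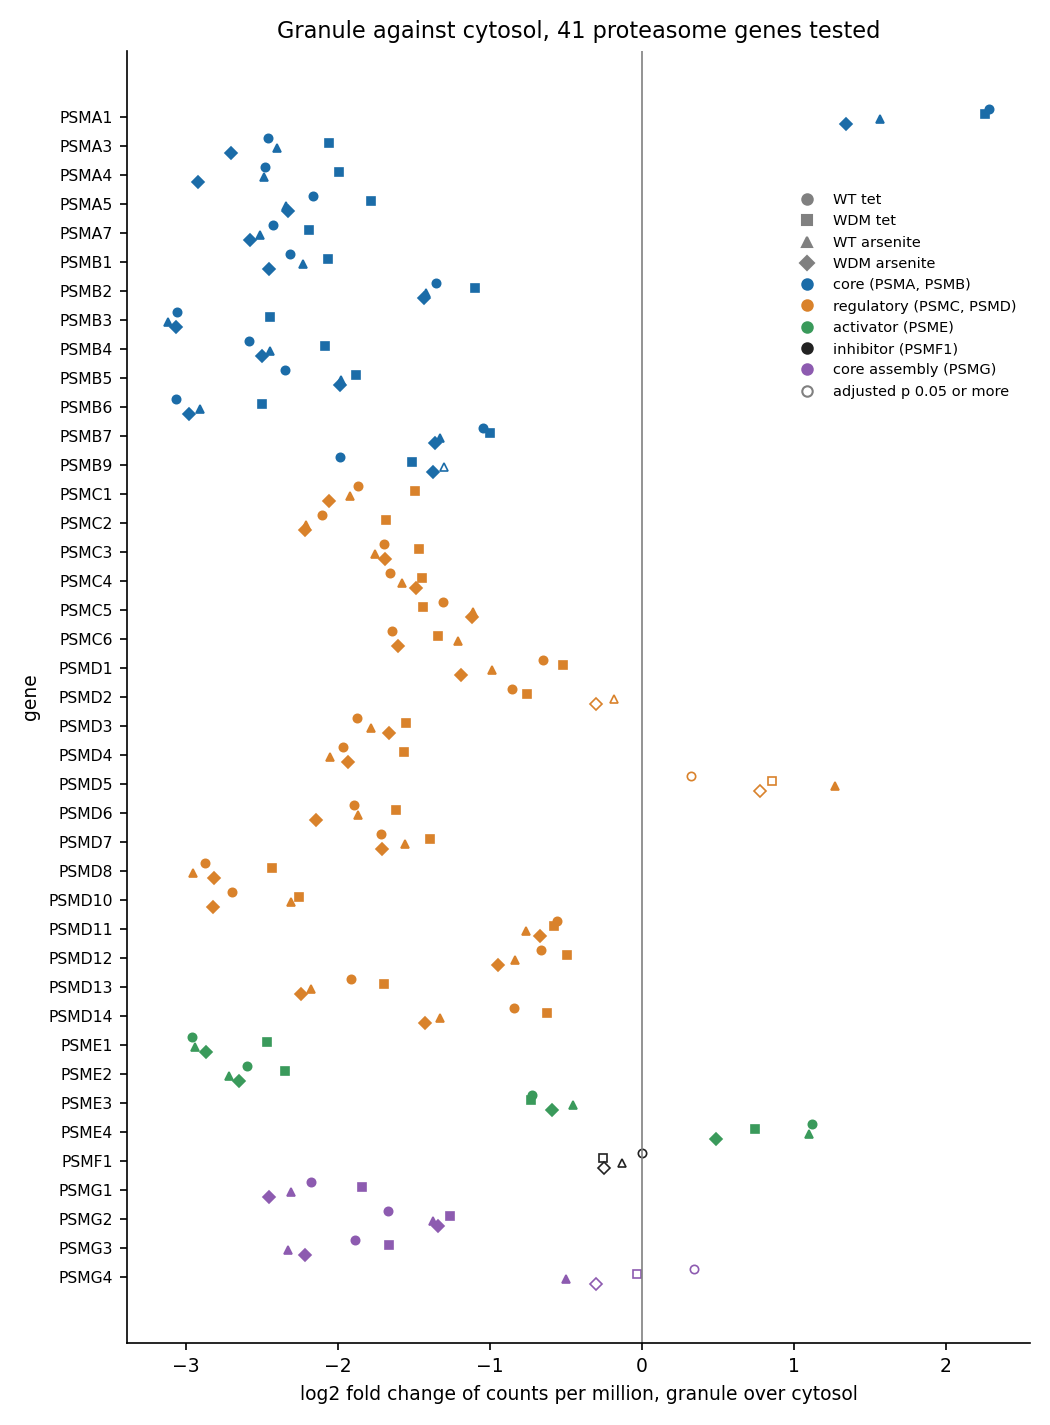
Log2 difference of granule against cytosol (x axis) for the 41 tested members (rows) in 4 comparisons; marker shape gives the line and treatment, colour the class, and open markers have adjusted p of 0.05 or more. PSMA1, PSME4 and PSMD5, the last at very low counts, lie right of 0 in all 4 comparisons. PSMF1 lies between -0.25 and 0, and 37 members lie left of 0 in all 4.

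The size of the granule difference moved with transcript length. Over the 41 members, Spearman's rho between canonical transcript length and the log2 difference was 0.511, 0.525, 0.468 and 0.437 in the 4 comparisons, given as a description since all points share the same libraries. Over 18092 genes with a length it was 0.213, 0.233, 0.354 and 0.287. Within the 13 core genes rho was 0.61, 0.758, 0.544 and 0.549, and within the 19 regulatory genes 0.558, 0.588, 0.511 and 0.488. Core transcripts were shorter: their median canonical length was 984 bases against 1754 for regulatory genes and 2748 for all genes. With an offset for exon length in the fit, 35, 35, 34 and 33 members were called lower, and the medians over all 41 tested members were -0.97, -0.90, -0.96 and -1.03 against all-gene medians of 0.34, 0.24, 0.36 and 0.40. That offset also moved the share of higher among all called genes, from 52.18%, 50.36%, 49.68% and 50.41% to 62.06%, 60.72%, 65.53% and 67.42%. PSMB7 turned to the higher side under the offset, at 0.42, 0.31, 0.24 and 0.20.

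**Figure D3:**
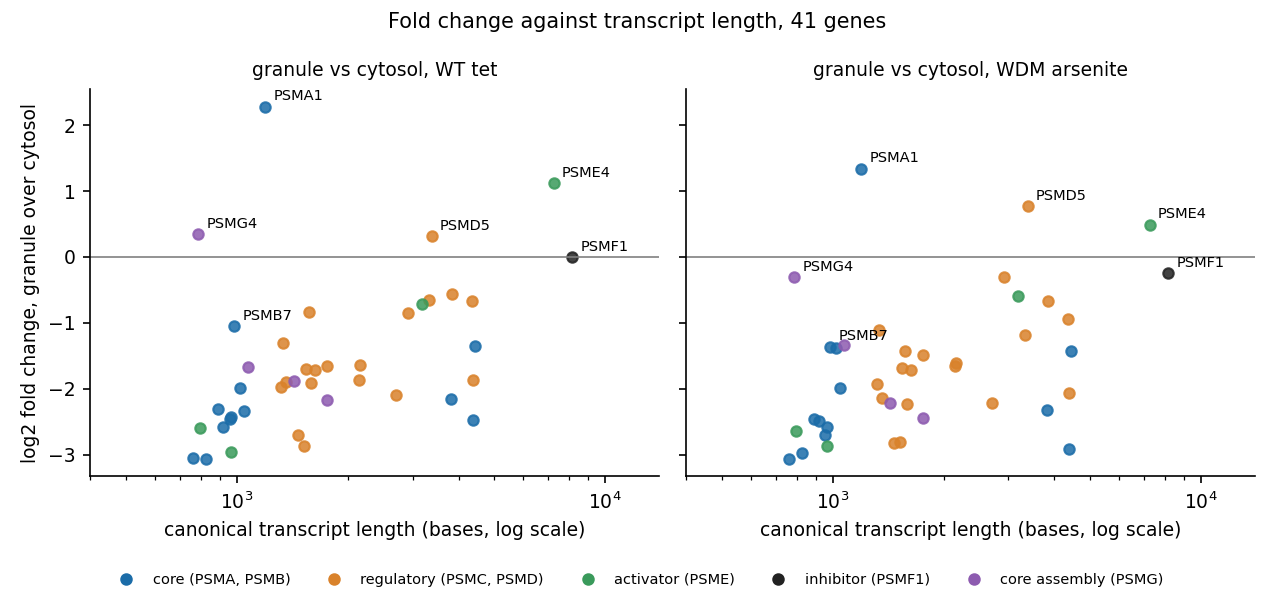
Log2 difference of granule against cytosol (y axis) by canonical transcript length in bases (x axis, log scale) for the 41 tested members, in WT with tetracycline and in WDM with arsenite; colour gives the class. Longer transcripts lie higher, with PSME4 above 0 and most short core transcripts below -2, and PSMA1 stands apart from the others.

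Core and regulatory genes were compared directly as the difference between the class means of log2 CPM in each library, a value with no test. In WT with tetracycline core minus regulatory was -0.30 ± 0.05 (SD, n = 3) in cytosol and -0.66 ± 0.08 in granule, a step of -0.36. The steps were -0.32 in WDM with tetracycline, -0.41 in WT with arsenite and -0.46 in WDM with arsenite. In each of the 4 comparisons the highest granule library was below the lowest cytosol library. The levels themselves depend on members with few counts, since PSMD5, PSMB9 and PSMA1 enter the class means. The same WT cytosol libraries gave -0.81 ± 0.02 with the 18 regulatory genes of the cytosol fit, which leaves out PSMD5. The levels therefore do not show whether core or regulatory mRNAs were more abundant in cytosol. Without PSMA1, an alternative chosen after seeing the data, the steps were -0.71, -0.64, -0.69 and -0.74. They were smaller, between -0.03 and -0.07, when the members removed by the low-count filter were kept. Taken as a difference of class medians they were -0.44, -0.54, -0.25 and -0.16, so the order of the 4 steps depends on the summary used.

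The second comparison asks what arsenite did to these mRNAs in cytosol, against tetracycline alone. Changes were small and mostly downward. In WT, 13 of 40 tested members fell in the edgeR test, where 15.4% of all genes fell. None rose there, also not in DESeq2 (12 lower), and 28 members had an unadjusted p under 0.05. In WDM, 11 fell and 1 rose, against 14.8% and 14.1% of all genes. The median log2 change was -0.28 in WT and -0.19 in WDM. PSMA3, PSMB1, PSMB4, PSMD8, PSMD10, PSME1 and PSMG4 fell in both lines. PSMD10, the regulatory-particle chaperone gankyrin, fell from 79.1, 109 and 103 CPM to 72.3, 78.2 and 80.4 in WT, a change of -0.47 ± 0.11 (adjusted p = 0.0048). In WDM it fell from 78.0, 93.4 and 76.8 CPM to 58.9, 64.2 and 64.4, a change of -0.49 ± 0.11 (adjusted p = 0.00409). The WDM ranges do not overlap, while in WT replicate 1 with tetracycline lies within the arsenite range. PSME1 fell by 0.40 ± 0.12 in WT and by 0.52 ± 0.12 in WDM, and its partner PSME2 fell by 0.43 ± 0.12 in WDM. Of the catalytic subunits in WT, PSMB6 fell by 0.36 ± 0.12 (adjusted p = 0.0268) and PSMB5 by 0.31 ± 0.12 (adjusted p = 0.0499), each call being lost in 4 of 6 fits with 1 library left out, and PSMB7 had -0.18 (adjusted p = 0.203). In WDM their changes were -0.32, -0.27 and -0.09, none past the threshold. PSME4 had 0.48 in WT and 0.50 in WDM, PSMB9 -1.11 and -0.10, and PSMF1 -0.19 and -0.08, with adjusted p from 0.0927 to 0.894. The gene that rose in WDM was PSMA1, by 0.68 ± 0.19. By class, 6 of 13 core and 5 of 18 regulatory genes fell in WT, and 4 and 2 in WDM; the core minus regulatory difference moved by -0.07 and -0.01.

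These cytosol counts rested on few libraries. In WT the number of called members was 34 without tetracycline replicate 1 and 3 without arsenite replicate 1, and in WDM it was 2 without arsenite replicate 1 and 21 without arsenite replicate 2. With library totals alone in place of the TMM scaling, 1 member was called in WT and 7 in WDM, the all-gene median shifted to 0.11 in WT, and the share of higher among all called genes went from 47.11% to 76.72% in WT and from 48.81% to 66.85% in WDM.

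In the granule fraction arsenite lowered a wider set of members in the WDM line than the 4 that passed in WT, although the lines were not shown to differ. In WDM 22 of 40 tested members fell and 2 rose, where 17.7% of all genes fell and 18.7% rose, and the median change was -0.57. In WT 4 fell and 2 rose, where 14.1% fell and 16.5% rose, and the median was -0.20. The difference between the lines was tested gene by gene: 0 of 18366 genes passed in edgeR and 0 members in DESeq2, with 6 members at an unadjusted p under 0.05. The smallest p among members was that of PSMD10 (-0.99 ± 0.31, adjusted p = 0.254). In cytosol 0 of 16670 genes passed this test. PSMD1, PSMD14, PSMG3 and PSMG4 fell in both lines. PSMD14, the metalloprotease that removes ubiquitin chains from substrates, went from 135, 116 and 176 CPM to 97.3, 114 and 83.3 in WT, a change of -0.52 ± 0.17 (adjusted p = 0.0203). In WDM it went from 126, 139 and 145 CPM to 85.8, 95.3 and 70.2, a change of -0.77 ± 0.17 (adjusted p = 0.000791). Both lines show every arsenite library below every library without arsenite. PSMG4 fell by 1.08 ± 0.19 in WT (adjusted p = 0.000159), from 29.6, 42.2 and 55.0 CPM to 16.7, 23.1 and 20.4, and by 0.54 ± 0.19 in WDM. PSMG3, a partner of PSMG4 in ring assembly, fell by 0.61 ± 0.20 and 0.81 ± 0.20. PSMD1, a scaffold subunit of the base, went from 239.7, 244 and 243 CPM to 172, 199 and 170.3 in WT, and from 190.1, 240.3 and 231 CPM to 140.3, 166 and 125 in WDM. Its changes were -0.41 ± 0.16 and -0.69 ± 0.16, again without overlap.

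The core genes account for 8 of the 22 falls in WDM granules, out of 12 tested, and the regulatory genes for 9 out of 19. In WT no core gene passed and 2 regulatory genes fell. The core minus regulatory difference moved by -0.20 in WT and -0.31 in WDM, and both signs turned when class medians were used. PSMA4, an outer-ring subunit, had the largest fall in WDM, from 58.4, 103.7 and 99.3 CPM to 43.5, 43.5 and 39.7, a change of -1.12 ± 0.20 (adjusted p = 8.9e-05). In WT its change was -0.25 ± 0.20 (adjusted p = 0.34), with a granule mean of 73.9 CPM before and 60.7 CPM after arsenite. PSMD10 fell by 0.97 ± 0.22 and PSMA3 by 0.84 ± 0.16 in WDM. Of the catalytic subunits, PSMB6 fell in WDM by 0.70 ± 0.21 (adjusted p = 0.0122; lost in 3 of 6 fits with 1 library left out, and -0.97 without tetracycline replicate 1), while its WT value was -0.10; PSMB5 had 0.16 in WT and -0.28 in WDM and PSMB7 -0.35 and -0.38, none past the threshold. PSMF1 had -0.21 in WT and 0.01 in WDM. Activators split again, with 1 higher and 2 lower of 4 in WDM: PSME4 rose in WT by 0.56 ± 0.16, from 263, 252 and 224 CPM to 417, 350.3 and 304 (adjusted p = 0.0099), and PSME3, the nuclear activator PA28 gamma, rose in WDM by 0.44 ± 0.17 (adjusted p = 0.0449). PSME4 did not pass in WDM, where its change was 0.26 to 0.36 in the fits with 1 library left out. PSME3 did not pass in WT, with granule means of 55.98 CPM before and 70.85 CPM after arsenite. The PSME3 call in WDM was lost in 5 of 6 fits with 1 library left out, the PSME4 and PSMD14 calls in WT in 2 each and the PSMG3 call in WT in 3. PSMD5 rose in both lines at very low counts: its 3 WT libraries held 0, 2 and 4 counts with tetracycline and 21, 46 and 16 with arsenite, and the WDM libraries 5, 6 and 3 and then 54, 29 and 27. In WT the count of called members was 2 without tetracycline replicate 3. In WDM it was 15 without tetracycline replicate 2 and 25 without tetracycline replicate 1, the library that stands apart.

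**Figure D4:**
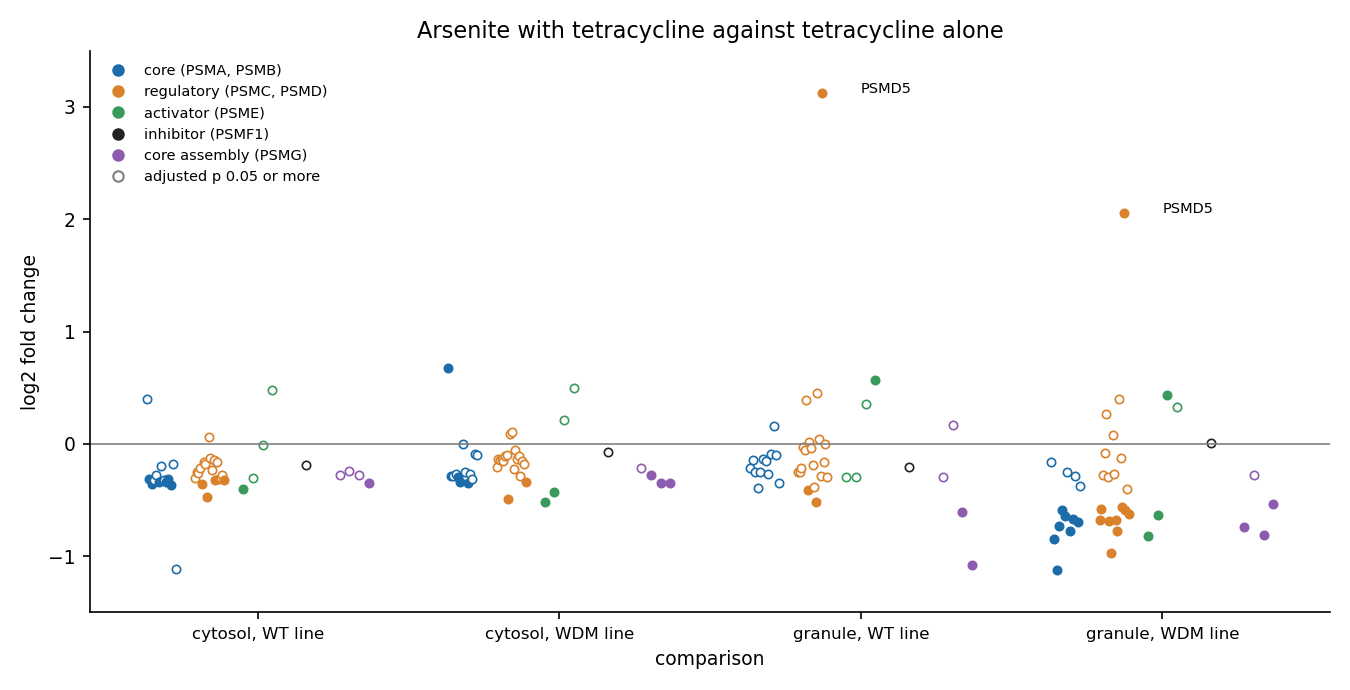
Log2 change with arsenite against tetracycline alone (y axis) for the tested members by class (x axis), in cytosol and granule of each line; open points have adjusted p of 0.05 or more, and PSMD5 is labelled. Most points lie below 0, and 22 members pass below 0 in WDM granules against 4 in WT granules.

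The change of granule enrichment with arsenite, tested as the interaction of fraction and treatment, gave 1 member higher and 1 lower in WT (12.0% and 19.4% of all genes) and 7 lower in WDM (16.5% of all genes). In WT the interaction of PSMD2 was 0.67 ± 0.23 on the log2 scale and that of PSMG4 was -0.84 ± 0.24. The 7 in WDM were PSMD14, PSMA3, PSMA4, PSMA1, PSMD1, PSMG1 and PSMD13, with values from -0.93 to -0.55. The median interaction was -0.05 in WT and -0.38 in WDM over the members and -0.21 and -0.17 over all genes, so the 7 of 41 in WDM are near the all-gene share. Their number ranged from 3 without cytosol tetracycline replicate 3 to 19 without granule tetracycline replicate 1. In WT it was 0 without granule tetracycline replicate 3 and 3 without cytosol tetracycline replicate 1. The difference between the lines in this enrichment passed for 0 members with tetracycline, where PSMB3 had the smallest p (0.61 ± 0.25, adjusted p = 0.833; 4 members at an unadjusted p under 0.05), and for 0 members with arsenite, where PSME4 had it (-0.61 ± 0.30, adjusted p = 0.742). DESeq2 also gave 0 in both.

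Tetracycline, which induces the tagged TIA1a in this system, was compared with no treatment in cytosol. Few members changed. In WT, PSMD12 and PSMF1 rose, against 2.93% of all genes; in WDM, PSMC5 and PSMD12 rose, against 3.07%. By DESeq2, 3 rose in each line and 1 fell in WDM. PSMD12, a lid subunit (ENSG00000197170, chromosome 17, 67337916 to 67366605, minus strand), went from 159, 153 and 159 CPM to 208, 188 and 187 in WT, a change of 0.35 ± 0.10 (adjusted p = 0.0395). In WDM it went from 129.7, 128 and 139.8 CPM to 180.3, 149 and 171, a change of 0.35 ± 0.10 (adjusted p = 0.0324). Neither line's ranges overlap, but the call was lost in 5 of 6 fits with 1 library left out in each line. PSMC5, an ATPase of the base ring, rose by 0.44 ± 0.10 in WDM (adjusted p = 0.00959) and had 0.32 ± 0.10 in WT (adjusted p = 0.0539). PSMF1 rose by 0.34 ± 0.08 in WT (adjusted p = 0.0254). The number of called members in WT was 8 without tetracycline replicate 1 and 0 without untreated replicate 1, and in WDM it was 0 without untreated replicate 2.

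The lines were then compared at each treatment. In untreated cytosol 7 members were lower in WDM and 1 was higher (5.60% and 4.19% of all genes), with tetracycline 9 were lower (6.84%), and with arsenite 3 were lower (5.37%). The medians were -0.22, -0.25 and -0.17, and all 18 tested regulatory genes had values below 0 in each of the 3 comparisons. The ATPase genes PSMC2, PSMC3, PSMC4 and PSMC5 were among the 7 lower in untreated cells. PSMC3 fell by 0.54 ± 0.13 (adjusted p = 0.00934), with 164, 179 and 186 CPM in WT and 122, 129 and 122 in WDM. With tetracycline its ranges lay close without overlap, at 171, 213 and 225 CPM in WT and 143, 169 and 144 in WDM, a difference of -0.47 ± 0.13 (adjusted p = 0.0173). PSMG4 was higher in untreated WDM by 0.36 ± 0.10, a call lost in 5 of 6 fits with 1 library left out. Calls of PSMC2 in untreated cells were lost in 3 such fits, of PSMC3 with tetracycline in 4 and of the assembly chaperone PSMG1 with arsenite in 4.

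PSMA7 and PSMC4 were lower in WDM cytosol at all 3 treatments. PSMA7, an outer-ring core subunit (ENSG00000101182, chromosome 20, 62136733 to 62143440, minus strand), had 281, 304 and 304 CPM in untreated WT and 230.2, 228 and 225 in untreated WDM. With tetracycline it had 255, 302 and 309.7 CPM in WT and 171, 218 and 188 in WDM, and with arsenite 247, 259.8 and 281 against 156, 179.7 and 165. WDM lies below WT without overlap each time, and the differences were -0.41 ± 0.10, -0.64 ± 0.11 and -0.66 ± 0.11 (adjusted p = 0.0143, 0.000222 and 0.000163). The chromosomal neighbourhood of PSMA7 moved with it: the 351 tested genes of chromosome 20 beyond 10 Mb had medians of -0.16, -0.38 and -0.39 in these comparisons, while the 75 genes within 10 Mb had 0.31, 0.12 and 0.08, and PSMF1 lies in the latter stretch. The part of that shift in the PSMA7 difference was not tested. PSMC4, an ATPase of the base ring (ENSG00000013275, chromosome 19, 39971165 to 39981764, plus strand), had 276, 301 and 319 CPM in untreated WT and 225, 222 and 223 in untreated WDM. With tetracycline it had 320, 361 and 364 against 263, 287 and 247 CPM, and with arsenite 328, 332 and 333 against 228, 294 and 249. Again the lines do not overlap, with differences of -0.45 ± 0.10, -0.45 ± 0.10 and -0.37 ± 0.10 (adjusted p = 0.00646, 0.0057 and 0.0232), the last being lost in 5 of 6 fits with 1 library left out. In untreated cells the number of called members ranged from 2 without WT replicate 3 to 5 without WT replicate 1. With tetracycline it ranged from 1 without WDM replicate 3 to 26 without WT replicate 1. With arsenite it ranged from 1 without WT replicate 1 to 9 without WDM replicate 2. When only the compared groups were fitted, the number was 32 untreated (29 lower and 3 higher), 1 with tetracycline and 5 with arsenite. The all-gene shares under that setting are not given here.

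**Figure D5:**
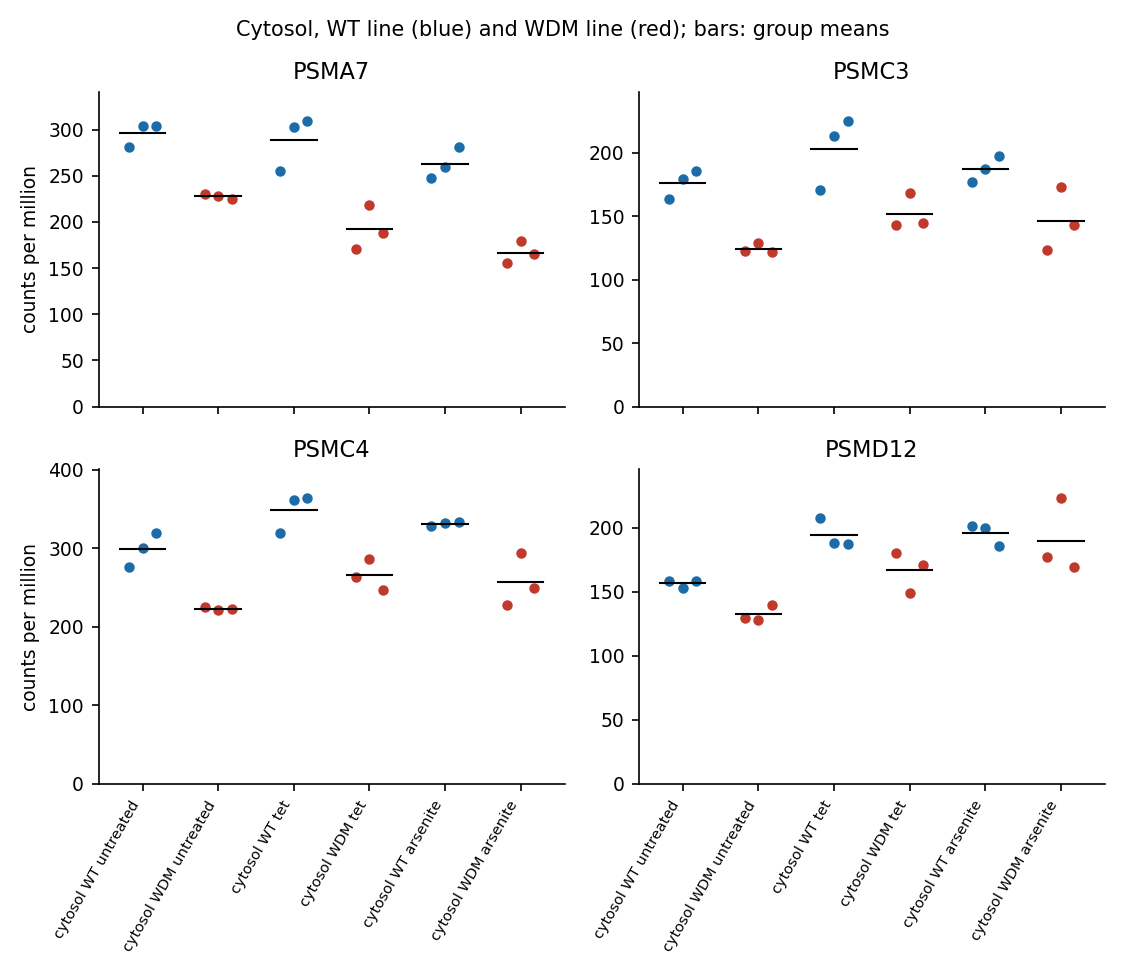
Level in CPM (y axis, from 0) of PSMA7, PSMC3, PSMC4 and PSMD12 in the 18 cytosol libraries by treatment (x axis); blue is WT, red WDM, and bars are group means. PSMA7 and PSMC4 of WDM lie below WT at each treatment, and PSMD12 lies higher with tetracycline than untreated in both lines.

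In the granule fraction the lines were compared in the same way. With tetracycline 0 members passed in the edgeR test or in DESeq2, with 3 at an unadjusted p under 0.05 (PSMA7, PSMC5 and PSME1), where 2.60% of all genes were higher and 2.95% lower. Without WDM replicate 1, the granule library that stands apart, 2 members passed. With arsenite 6 members were lower in WDM (3.84% of all genes): PSMD10 by 0.84 ± 0.21, PSMA7 by 0.74 ± 0.18, PSMC6 by 0.63 ± 0.18, PSMA4 by 0.62 ± 0.20, PSMA3 by 0.55 ± 0.16 and PSME4 by 0.53 ± 0.16. The number was 0 without WDM replicate 3. PSMD10 had 15.9, 13.9 and 16.6 CPM in WT and 8.66, 9.77 and 9.23 in WDM, with no overlap, and its call was lost in 4 of 6 fits with 1 library left out. The genes of chromosome 20 beyond 10 Mb had granule medians of -0.42 with tetracycline and -0.30 with arsenite.

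Promoter sequence was looked up for PSMA7 and PSMC4, the members lower in WDM in all 3 cytosol comparisons. It was also looked up for PSMD12, the member higher with tetracycline in both lines. PSMA7 had no promoter window in the reference used and was not searched, so sequence is shown for PSMC4 and PSMD12. The choice was made after values and motif matches were seen. The 250 bases before the RefSeq start are printed 5′ to 3′ on the gene's strand, from RefSeq on GRCh38.p14, with any match to the motif TGACNNNGC in capitals. This is the core of the antioxidant response element, which NRF1 and NRF2 bind with small MAF proteins.
PSMC4, chr19:39970915-39971164, plus strand: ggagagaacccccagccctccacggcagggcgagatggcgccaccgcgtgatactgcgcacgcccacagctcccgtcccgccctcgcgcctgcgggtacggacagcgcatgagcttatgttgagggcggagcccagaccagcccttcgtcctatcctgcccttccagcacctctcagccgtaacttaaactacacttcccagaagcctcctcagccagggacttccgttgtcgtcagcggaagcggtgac
PSMD12, chr17:67366578-67366827, minus strand: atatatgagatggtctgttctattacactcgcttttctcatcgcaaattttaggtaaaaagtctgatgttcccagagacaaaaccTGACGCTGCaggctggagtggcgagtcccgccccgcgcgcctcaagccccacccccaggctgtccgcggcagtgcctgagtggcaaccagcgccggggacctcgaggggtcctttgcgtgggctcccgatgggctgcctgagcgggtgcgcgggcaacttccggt
PSMD12 has 1 match, which begins 165 bases before the start, and PSMC4 has 1 match that lies after the start, outside the printed bases. Searched on both strands over 250 bases before to 50 after the start, the motif was in 15 of 42 members with a window (35.7%) and in 4384 of 27305 genes (16.1%). By class it was in 3 of 15 core, 7 of 19 regulatory, 3 of 4 activator, 0 of 1 inhibitor and 2 of 3 assembly genes. A match describes letters and is neither a binding site nor a cause of any difference above.

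The other genes of the system were followed in lists fixed alongside the members. Of the 8 genes of the NRF1 route, NFE2L1 itself fell in cytosol with arsenite, by 0.60 ± 0.08 in WT (adjusted p = 7.19e-05) and 0.58 ± 0.08 in WDM, and rose in granule, by 0.67 ± 0.20 and 0.80 ± 0.20. DDI2, the protease that activates NRF1, rose in granule by 1.15 ± 0.18 and 1.03 ± 0.18. In granule 3 genes of this list rose and 1 fell with arsenite in each line, where 16.5% of all genes rose and 14.1% fell in WT and 18.7% and 17.7% in WDM. In cytosol 1 fell in WT (15.4% of all genes), and 1 rose and 1 fell in WDM (14.1% and 14.8%), so 1 of 8 falling is near the all-gene share in both fractions. AKIRIN2, which helps bring proteasomes into the nucleus, rose in cytosol by 0.71 ± 0.12 and 0.56 ± 0.12.

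Of the 10 tested genes that carry ubiquitinated proteins to the proteasome or belong to the AN1 zinc-finger family, 4 rose and 1 fell in WT granules with arsenite, and 3 rose and 2 fell in WDM granules, against the same all-gene shares; the falls are near them. ZFAND5, a proteasome-stimulating zinc-finger protein, rose in both fractions, by 0.30 and 0.41 in cytosol and 1.06 and 0.58 in granule, WT and then WDM. UBQLN2, a shuttle factor, rose in granule by 1.27 and 1.54. Of the 6 ubiquitin genes, 3 fell in WT granules and 4 in WDM granules with arsenite, where 14.1% and 17.7% of all genes fell. UBB was among them, with falls of 0.85 and 1.35. Against cytosol, the ubiquitin genes were lower in granule for 6, 5, 5 and 5 of 6, with medians of -1.89, -1.63, -2.80 and -2.91, where 36.2%, 35.3%, 35.5% and 35.7% of all genes were lower. Of the 12 proteasome-associated genes, 5, 6, 8 and 8 were lower in granule against those shares, and 0, 0, 2 and 2 were higher, where 39.5%, 35.8%, 35.0% and 36.3% of all genes were; the first of the lower counts is near the all-gene share. POMP, the maturation factor of the core particle, had log2 differences of -2.77, -2.32, -2.74 and -2.90, all past the threshold.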

How the data were processed

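RNA from cytosol and from granule material captured through GFP-TIA1a was sequenced in 30 libraries; the kit was a stranded total RNA kit with ribosomal RNA removal, per the labels' protocols. The authors deposited raw gene counts, and the submitters' processing notes name Trimmomatic, STAR, Picard, featureCounts and GRCh38, with versions and counting options not given in the sources used here. From the counts, 3 fits were made in edgeR 4.0.16 (R 4.3.3; TMM scaling, filterByExpr with a minimum count of 10, robust quasi-likelihood test): 18 cytosol libraries, 12 granule libraries and the 24 libraries with tetracycline. The fits tested 16670, 18366 and 18141 genes, with common biological coefficients of variation of 0.1035, 0.1607 and 0.1447. There were 15 comparisons of pairs of groups and 6 interactions. Called means a Benjamini-Hochberg adjusted p below 0.05 over all genes tested; an SE is the log2 change divided by the square root of the test's F. Library totals of 5906167 to 27419145 counts set the precision, and a count of 0 allows up to 3 counts, for counting error only.

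The members and gene lists were chosen with earlier results of these data known. In each comparison full values are given for up to 3 higher and 3 lower called members by largest change, if the higher group averages 5 CPM or more. In the fraction and arsenite comparisons values or ranges are also given for PSMB5, PSMB6, PSMB7, PSME4 and PSMF1, and in some of these for PSMB9. For interactions the member with the smallest p is given. Members named because they passed in every comparison of a kind, or for few counts, and PSMA1, PSMD2, PSMD5, PSMD14 and PSMG4 where they fall outside this rule, were chosen after their values were seen. Lengths and gene overlaps come from GENCODE 44, in which 60463 of 60664 table identifiers were found. Same-numbered libraries deviated together in the granule against cytosol comparison of WDM with arsenite (correlations of 0.306 to 0.564), where 3 of 3 matched their own number best. In the arsenite comparison of WDM granules (0.103 to 0.459) 1 of 3 did. In granule against cytosol of WT with arsenite (0.056 to 0.23) 3 of 3 did. With the replicate number as a block the members called in the WDM comparisons just named were 2 higher and 35 lower, and 1 higher and 22 lower. Other counts moved more with the block and are given below. The fits were tested on simulated counts with known changes. Changes of 1.5-fold were recovered for 42.4% of changed genes for arsenite in WT cytosol, 9.09% in WT granule and 22.7% for WT granule against cytosol. For 2-fold changes the shares were 62.7%, 58.2% and 76.1%. In these simulations 66 or 67 genes changed by each fold. In the data 4838 of 16670 genes were called for arsenite in WT cytosol and 13731 of 18141 for WT granule against cytosol. The recovered shares therefore do not measure the sensitivity of the real comparisons, and a member that was not called can still differ. Alternatives were RLE factors, library totals alone, no low-count filter, a replicate block, length offsets, only the compared groups, DESeq2 1.42.0 and leaving out each library. Some genes of the lists are not reported here.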

Additional observations from a re-analysis of the deposited data

Results flagged for a closer look

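For 9 members the granule enrichment, the log2 difference of granule against cytosol, differed between cells with and without arsenite by the edgeR test of the interaction. In the WT line the interaction was 0.67 ± 0.23 (SE) for PSMD2 (adjusted p = 0.0238) and -0.84 ± 0.24 for PSMG4 (adjusted p = 0.00768). In the WDM line it was -0.92 ± 0.28 for PSMA1 (adjusted p = 0.016), -0.65 ± 0.19 for PSMA3 (adjusted p = 0.0134) and -0.93 ± 0.27 for PSMA4 (adjusted p = 0.0139). It was also lower in WDM for PSMD1 at -0.67 ± 0.21 (adjusted p = 0.0217), PSMD13 at -0.55 ± 0.20 (adjusted p = 0.0484), PSMD14 at -0.80 ± 0.22 (adjusted p = 0.00975) and PSMG1 at -0.61 ± 0.22 (adjusted p = 0.0438). The all-gene medians of the interaction were -0.21 in WT and -0.17 in WDM. Over all genes 12.0% were higher and 19.4% lower in WT and 16.5% lower in WDM, so the 7 of 41 members in WDM are near that share and the 2 in WT are under it. The number of members fell to 0 in WT without granule tetracycline replicate 3 and to 3 in WDM without cytosol tetracycline replicate 3, and was 19 in WDM without granule tetracycline replicate 1. PSMD13 and PSMD14 are lid subunits and PSMG1 is an assembly chaperone. Groups of 3 libraries are too small for a test of single outlying samples.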

How the results depend on the processing

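The count of called members in granule against cytosol stayed between 33 and 39 under the settings run, leaving out a library included; the other counts moved more. Without the low-count filter, 3 members were called for the arsenite change of enrichment in WDM and 8 for WDM against WT in cytosol with arsenite. With a replicate block the calls were 12 for the arsenite change in WDM, 28 for arsenite in WT cytosol, 6 for tetracycline in WDM, and 18 and 8 for the lines in cytosol with tetracycline and with arsenite; the numbers are not stated to pair samples. The length offset with the block gave 4 for the arsenite change in WT. Library totals alone gave 1 and 7 for arsenite in WT and WDM cytosol, 1 for tetracycline in WT and 2 for the lines in granule with arsenite, and moved the share of higher among all called genes from 55.08% to 43.92% for tetracycline in WT, from 45.87% to 55.96% for the lines in cytosol with tetracycline and from 51.71% to 66.03% in granule with arsenite. DESeq2 gave 4 for tetracycline in WDM. With only the compared groups fitted the calls were 3 and 4 for arsenite in cytosol, 0 and 5 for tetracycline, and 32, 1 and 5 for the lines in cytosol untreated, with tetracycline and with arsenite; fewer samples were then fitted, and the cause of the other changes was not tested.

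Among single genes, PSMF1 changed sign in WT granule against cytosol with tetracycline: 0.0034 with RLE factors, 0.038 with library totals, 0.00037 with the block, 0.0058 in DESeq2 and 0.044 with only the compared groups. Its arsenite change in WDM was 0.015 in cytosol with library totals, and -0.0019 and -0.001807 in granule with RLE factors and DESeq2. In granule against cytosol PSMB7 was 0.42, 0.31, 0.24 and 0.20 with the length offset, 0.43, 0.31, 0.22 and 0.18 with the block added, and 0.32, 0.22, 0.34 and 0.27 with canonical lengths, chosen after seeing the data; with those, PSMB9 was 0.28 and 0.20 with arsenite and PSME4 -0.040 in WDM with arsenite.

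Core minus regulatory was -0.031, -0.055, -0.068 and -0.039 for the fractions without the filter, -0.14 for arsenite in WDM cytosol and -0.10 and -0.11 in granule. It was -0.40 in WDM with tetracycline with a prior count of 0.5. As a median it was -0.44, -0.54, -0.25 and -0.16, and -0.17 for arsenite in WDM cytosol. For arsenite in granule the median gave 0.061 and 0.13, opposite in sign to the reported -0.20 in WT and -0.31 in WDM. Without PSMA1 it was -0.71, -0.64, -0.69 and -0.74, and -0.076 for arsenite in WDM cytosol. Without PSMD5, PSMD9 and PSMD10 it was -0.049 and -0.23 for arsenite in granule.

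With 1 library left out in turn, the calls ranged from 37 to 39, 37 to 38, 37 to 39 and 36 to 37 for the fractions, 3 to 34 and 2 to 21 for arsenite in cytosol, 2 to 6 and 15 to 25 in granule, 0 to 3 and 3 to 19 for the arsenite change, 0 to 8 and 0 to 2 for tetracycline, 2 to 5, 1 to 26 and 1 to 9 for the lines in cytosol, and 0 to 2 and 0 to 6 in granule. PSMF1 ranged from -0.16 to 0.081 in WT granule against cytosol, from -0.14 to 0.0054 for arsenite in WDM cytosol and from -0.075 to 0.088 in granule; for arsenite in WDM cytosol PSMB7 ranged from -0.20 to 0.016 and PSMB9 from -0.35 to 0.20. Core minus regulatory ranged from -0.40 to -0.32, -0.35 to -0.28, -0.50 to -0.35 and -0.52 to -0.40 for the fractions, from -0.11 to 0.0005 and -0.03 to 0.04 for arsenite in cytosol, and from -0.24 to -0.16 and -0.36 to -0.27 in granule. Depth limits the members with few counts: PSMD5 and PSMB9 were tested at a few counts per library, and where the PSMA1 counts fall within the gene was not tested.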

Other observations

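Several genes outside the members differed between the lines in cytosol. UCHL5, a deubiquitinase bound to the regulatory particle, was higher in WDM by 0.40, 0.25 and 0.31 on the log2 scale untreated, with tetracycline and with arsenite. UFD1, which works with the segregase VCP, was lower in WDM with differences of -0.40 untreated and -0.48 with tetracycline, and had -0.24 with arsenite (edgeR, adjusted p = 0.239). UBE3C, a ubiquitin ligase that acts at the proteasome, rose with tetracycline by 0.29 in WT and 0.24 in WDM. With arsenite in granule SYVN1, a ubiquitin ligase of the endoplasmic reticulum, gained 0.70 in WT and 1.12 in WDM. UBQLN4, a shuttle factor, gained 0.84 and 1.13, while RPS27A, a ubiquitin and ribosomal protein fusion gene, fell by 0.98 and 1.53.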
